A study of Mus musculus with 16 samples.

Results

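The 37 genes described here are transcripts of liver macrophages, taken by name from a table of 12617 tested genes in mouse liver. All 37 were in the table and all passed its filter on low values. They were read in 5 classes: 7 markers of resident Kupffer cells, 3 chains of the complement protein C1q, 10 markers of recruited and lipid-associated macrophages, 4 genes of MHC class II antigen presentation and 13 genes shared by most macrophages. The 16 livers were profiled by mRNA sequencing in 2 groups of 8, a control CRISPR group and a Cyp7a1 CRISPR group, and every mouse had eaten a Western diet, rich in fat and sugar, for 8 weeks. CRISPR cuts the genome at a chosen gene, and the Cyp7a1 enzyme catalyses the first and rate-limiting step by which hepatocytes turn cholesterol into bile acids. Neither strain, sex and age nor the delivery of the editing is stated in the labels, which also leave unsaid whether 2 libraries could share an animal, and p-values therefore describe the spread of these samples alone. Both groups carried the diet, so the diet itself cannot be compared. Depth, as reads recovered from the table, was 13.8 to 27.4 M (mega) per library. Of the 16 livers, Cyp7a1 24 and Control 20 stood apart in many members, and log2 fold changes that moved by over 1.5 times or changed sign without them are also given without one or both. The targeted transcript was not lower in the livers labelled Cyp7a1: Cyp7a1 ranged from 2148 to 5642 normalized counts in controls (median 3281) and from 3069 to 5873 in the other group (median 4892), with a log2 fold change of 0.43 ± 0.20 (SE; limma adjusted p = 0.227). A transcript can persist after an edit, so this level checks nothing about the edit, the second group is named Cyp7a1-labelled here, and each direction below rests on that label.

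Kupffer cells are macrophages that live in the liver sinusoids, where they clear particles, bacteria, aged red cells and lipids from portal blood. They are seeded before birth and renew themselves, and in the mouse they carry Clec4f, Timd4, Vsig4 and Cd163. When liver fat and cholesterol build up, monocytes that carry Ccr2 and Cx3cr1 enter from the blood, and some become lipid-associated macrophages that express Trem2, Gpnmb, Spp1, Cd9 and Mmp12. In whole tissue, a lower level of a macrophage transcript can come from fewer macrophages or from less RNA in each one, and these cannot be told apart here.

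None of the 37 transcripts passed the test for a difference between the groups (limma, adjusted p under 0.05), where 772 of all 12617 genes, 6.12%, did. That background was made of 3.07% of genes called higher and 3.05% called lower in the Cyp7a1-labelled livers. At an unadjusted limma p under 0.05 there were 4 members, Cd163, Cd74, H2-Ab1 and H2-Aa, beside 20.5% of all genes. With edgeR on recovered reads 0 of 37 members passed as well, beside 6.02% of all genes, and with DESeq2 Cd163 and Cd74 passed, beside 8.88%. In 0 of 37 members were the groups fully apart, against 1.04% of all genes. The log2 fold changes (Cyp7a1-labelled over control, from log2(value + 1)) had a median of 0.0038 over the members and 0.0034 over all genes, with 19 members above 0 and 18 below. By class the medians were 0.12 for resident markers, -0.019 for the C1q chains, -0.15 for recruited markers, -0.38 for MHC class II and 0.052 for shared genes. Above 0 lay 5 of 7 resident markers, 1 of 3 C1q chains, 4 of 10 recruited markers, 0 of 4 MHC class II genes and 9 of 13 shared genes. Cyp7a1 24 was the liver with the highest value of 19 members. Without this liver the median over the members was -0.15, with 12 above 0 and 25 below, beside -0.0024 over all genes. The C1q median was then -0.13, that of shared genes turned to -0.13 and that of recruited markers was -0.23. With only Control 20 left out, the median over the members was -0.037, with 16 above 0 and 21 below. With both livers left out, a choice made after seeing the data, 9 members were above 0 and 28 below. Their median was -0.21, beside -0.0034 over all genes. The class medians were then -0.38 for recruited markers, -0.50 for MHC class II and 0.13 for resident markers. Those of the C1q chains and of shared genes were each -0.18.

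**Figure D1:**
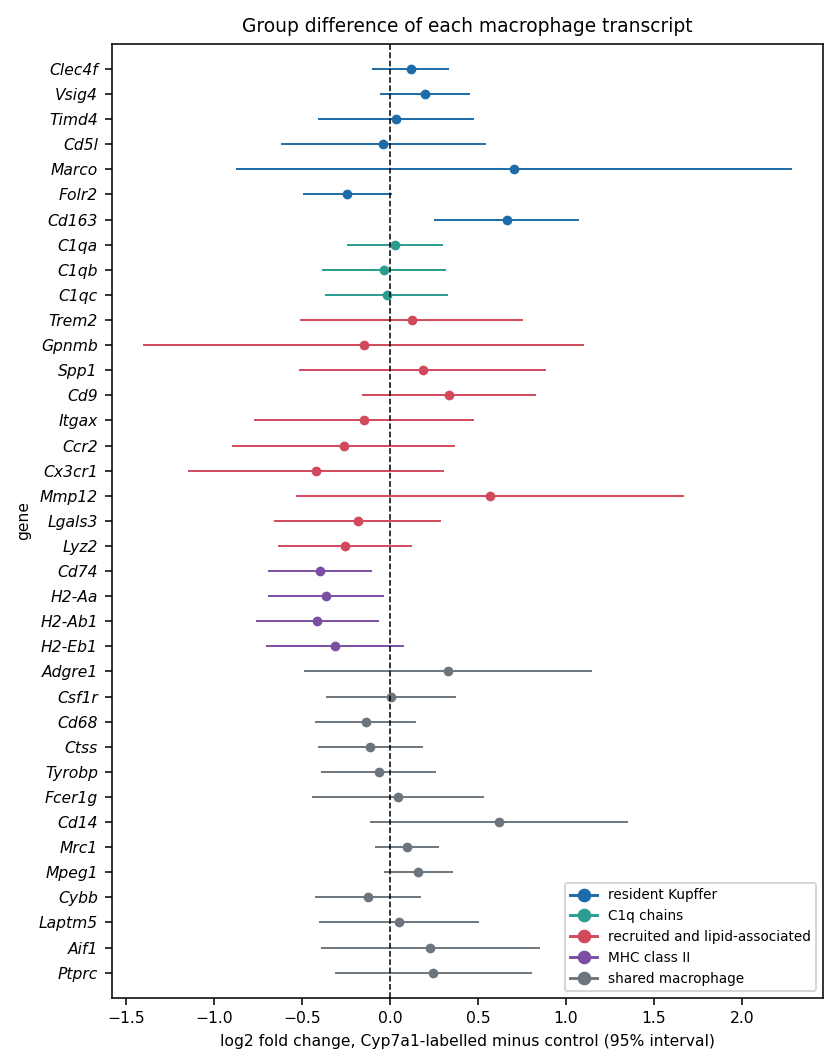
Log2 fold change of each of the 37 transcripts (x axis, Cyp7a1-labelled over control, from log2(value + 1), points with limma's 95% intervals), with genes on the y axis coloured by class. The intervals of Cd163, Cd74, H2-Aa and H2-Ab1 lie to one side of 0, and none of these genes passed after adjustment over 12617 genes.

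Levels of different genes were compared per kilobase of exon, as normalized counts over the median of all 16 livers. Cd74, the invariant chain that escorts MHC class II molecules, stood highest at 1902 per kilobase, followed by Cd5l at 1127 and C1qb at 1034. The Kupffer lectin Clec4f had 724 and the pan-macrophage receptor Csf1r 313. The 7 lowest members were Ptprc, at 8.71, and 6 recruited markers, Itgax at 17.5, Cx3cr1 at 15.3, Mmp12 at 14.5, Gpnmb at 13.5, Trem2 at 8.43 and Ccr2 at 5.97.

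Among the resident markers, Clec4f (chromosome 6, 83644542 to 83656187, minus strand), a lectin that mice express on Kupffer cells alone, was the steadiest. It ranged over 1467 to 2009 (median 1741) normalized counts in controls and 1419 to 2589 (median 1798) in the Cyp7a1-labelled livers. The ranges overlapped, with 3 Cyp7a1-labelled livers above the highest control and 1 below the lowest. Its log2 fold change was 0.12 ± 0.10 (SE; 95% interval -0.098 to 0.33, limma adjusted p = 0.575).

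Vsig4, a complement receptor that captures opsonized particles, ranged over 421 to 660.1 (median 576) in controls and 483 to 843 (median 643) in Cyp7a1-labelled livers, 4 of which lay above the highest control (log2 fold change 0.20 ± 0.12, limma adjusted p = 0.380). Timd4, the phosphatidylserine receptor used to tell long-lived resident cells, ranged over 101 to 207 (median 142) and 76.0 to 263 (median 146). Its lowest and highest values both fell in the Cyp7a1-labelled group, in livers 2 and 24, and its log2 fold change of 0.035 ± 0.21 took the opposite sign without Cyp7a1 24 (-0.086). Folr2, a folate receptor, ranged over 182 to 312 (median 206) in controls and 143 to 226 (median 191) in the other group, where 7 of 8 livers lay below the control mean (log2 fold change -0.24 ± 0.12, limma adjusted p = 0.254).

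Cd163 (chromosome 6, 124304656 to 124330527, plus strand), the receptor that takes up haemoglobin bound to haptoglobin, came nearest to a call among all 37. Control livers held 276 to 745 (median 394) normalized counts and Cyp7a1-labelled livers 442 to 1184 (median 630.2). All 8 Cyp7a1-labelled livers lay above the control mean of normalized counts, but only Cyp7a1 17 and Cyp7a1 28 exceeded the highest control, Control 38, and the ranges overlapped. The log2 fold change was 0.66 ± 0.19 (SE; 1.58-fold, 95% interval 0.25 to 1.07, limma adjusted p = 0.0510), and in edgeR the adjusted p was 0.0535. Over every alternative run the log2 fold change stayed above 0, between 0.54 without Cyp7a1 17 and 0.79 without Control 38. It passed the threshold in 8 alternatives, of which 3 left out 1 library: Control 38 (limma adjusted p = 0.0159, where 4.57% of all genes passed), Cyp7a1 2 (0.0394, 5.01%) or Cyp7a1 26 (0.0358, 5.01%). The other 5 were array weights (0.0278, 7.41%), equal totals (0.0448, 5.03%), a minimum mean of 50 (0.0480, 6.94%), quantile normalization (0.0493, 6.39%) and DESeq2 (0.0158, 8.88%).

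Marco and Cd5l each had 1 liver far above the rest. Marco (chromosome 1, 120474538 to 120505024, minus strand), which binds bacteria and unopsonized particles, spanned 35.4 to 668 (median 102) normalized counts in controls, where Control 13 stood highest. In the Cyp7a1-labelled group it spanned 49.8 to 3916 (median 124). Cyp7a1 24 alone held the top value, 5.86 times the highest of the other 15 livers, while the next Cyp7a1-labelled liver had 432, inside the control range. The log2 fold change of 0.70 ± 0.75 (95% interval -0.87 to 2.28) was 0.078 without Cyp7a1 24, and neither passed (limma adjusted p = 0.663 and 0.960). On recovered reads the log2 fold change was 1.87 in edgeR, which did not pass, and 0.58 in DESeq2.

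Cd5l, a secreted protein of Kupffer cells also called AIM, ranged over 1714 to 3729 (median 2393) in controls and 1413 to 8124 (median 1977) in Cyp7a1-labelled livers. Its 2 highest values of all were in Cyp7a1 24 and Control 13, and 6 of 8 Cyp7a1-labelled livers lay below the control mean. Limma gave a log2 fold change of -0.038 ± 0.27 and edgeR one of 0.19, opposite in sign, and without Cyp7a1 24 limma's was -0.30 (limma adjusted p = 0.313).

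**Figure D2:**
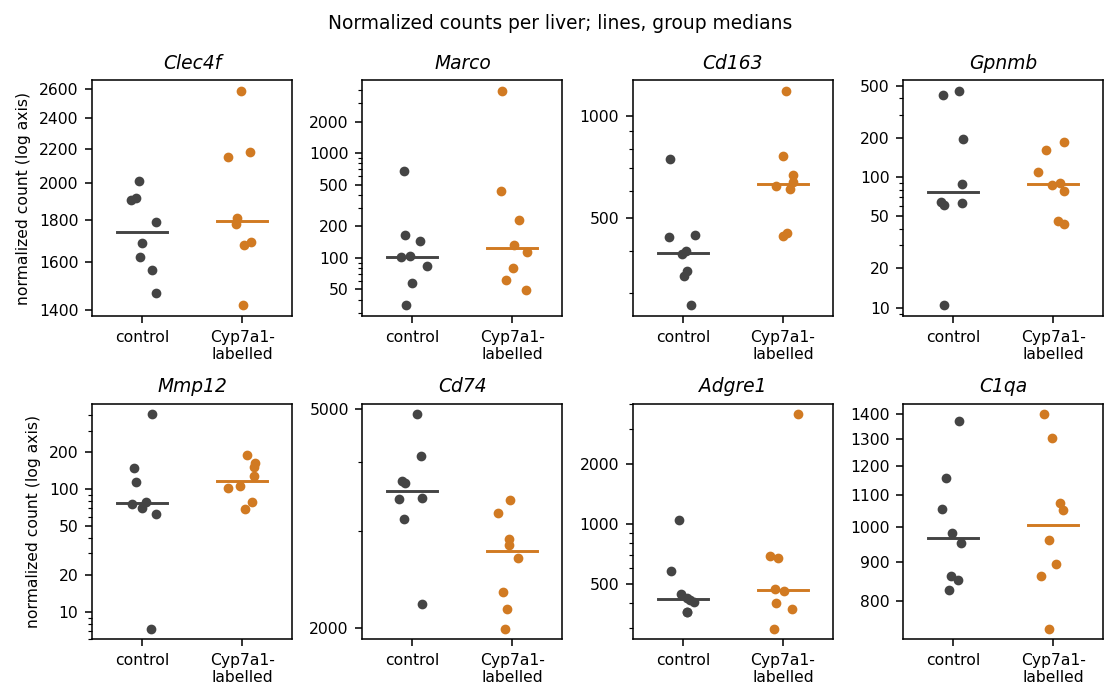
Normalized counts (y axes, logarithmic) of 8 transcripts in control and Cyp7a1-labelled livers, 1 point per liver, with lines at the group medians. Every Cd163 point of the Cyp7a1-labelled livers sits above the control median and every Cd74 point below it, though the ranges of the groups overlap. Marco and Adgre1 each have 1 far point at 3916 and 3537.

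C1q, the molecule that starts the classical complement pathway, is built of chains A, B and C, which macrophages make from 3 adjacent genes on chromosome 4 (136880129 to 136898803 on GRCm38, a stretch of 18.7 kb). C1qa ranged over 826 to 1372 (median 967) normalized counts in controls and 737 to 1399.5 (median 1005) in the Cyp7a1-labelled group. C1qb ranged over 970.1 to 1604 (median 1125) and 804 to 2197 (median 1086), and C1qc over 818 to 1512 (median 1048) and 731 to 1797 (median 984). In each chain Control 13 was the highest control and Cyp7a1 19 the lowest liver of all 16. The log2 fold changes were 0.030 ± 0.13, -0.034 ± 0.17 and -0.019 ± 0.16 (SE), with 95% intervals that reached from -0.38 to 0.32 at their widest, and the sign of each changed under some of the settings tried. Without Cyp7a1 24 they were -0.022, -0.17 and -0.13.

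The promoter of C1qb, taken from RefSeq on GRCm38.p6, is shown because it holds a core of the macrophage factor PU.1. It is the 250 bases before the RefSeq start, which lies 13 bases from the start in the gene annotation used for coordinates, 5′ to 3′ on the gene's strand, with the match to the core AGGAAGT, which reads ACTTCCT on the other strand, in capitals.
C1qb chr4:136886201-136886450 (minus strand): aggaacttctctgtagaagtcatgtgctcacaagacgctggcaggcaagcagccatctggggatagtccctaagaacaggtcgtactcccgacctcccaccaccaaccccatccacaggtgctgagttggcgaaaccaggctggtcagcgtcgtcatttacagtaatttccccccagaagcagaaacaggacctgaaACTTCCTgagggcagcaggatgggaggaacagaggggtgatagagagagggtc
The match began 53 bases before the RefSeq start. Searched on both strands in windows of 300 bases that end 50 bases past the RefSeq start, this core was in 9 of 30 members with a promoter in the table and in 9.35% of 32851 promoters. The motifs searched and the promoters printed were chosen with their matches in view, and a match is a description of letters, not of binding.

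The recruited and lipid-associated markers varied more between control livers than the other classes, with a median SD of 0.75 on the log2 scale against 0.25 to 0.37. Gpnmb (chromosome 6, 49036546 to 49070929, plus strand), a glycoprotein of lipid-laden macrophages, ranged over 10.5 to 456 (median 76.7) normalized counts in controls and 43.7 to 186 (median 88.3) in Cyp7a1-labelled livers. Control 13 and Control 7 (421) held the highest values and Control 20 the lowest, so that all 8 Cyp7a1-labelled livers fell inside the control range. The highest control had 43.6 times the value of the lowest, against 4.26 times in the Cyp7a1-labelled group, and the log2 fold change was -0.15 ± 0.59 (95% interval -1.40 to 1.10). Without Control 20 it was -0.60, and without Control 13 it was 0.16, while edgeR gave -0.77 and DESeq2 -0.77.

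Mmp12 (chromosome 9, 7344381 to 7369499, plus strand), the macrophage elastase, ranged over 7.32 to 408 (median 77.9) in controls, from Control 20 to Control 7. In Cyp7a1-labelled livers it ranged over 68.6 to 190.0 (median 118), all inside the control range. Its log2 fold change was 0.57 ± 0.52 (limma adjusted p = 0.599) and 0.10 without Control 20, and it was 0.017 in edgeR and 0.032 in DESeq2. Trem2, a lipid-sensing receptor, ranged over 23.0 to 108 (median 36.9) and 36.4 to 69.9 (median 41.7). Control 7, Control 13 and Control 12 (51.7) were its highest controls, while the 4 lowest controls reached at most 28.2, under every Cyp7a1-labelled liver (log2 fold change 0.12 ± 0.30, limma adjusted p = 0.875). Without Control 20 its value was 0.021, and without Cyp7a1 24 as well -0.0078.

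Itgax, the CD11c integrin chain, ranged over 30.3 to 227 (median 84.3) in controls and 53.8 to 111 (median 87.0) in Cyp7a1-labelled livers, again inside the control range. Spp1 (osteopontin), which bile duct cells also make, ranged over 699.8 to 3362 (median 1528) and 1035 to 3477 (median 1511), and the tetraspanin Cd9 over 149 to 516 (median 269) and 235 to 582 (median 329). Cyp7a1 24 was the highest liver of all 16 for both. Their log2 fold changes were -0.15 ± 0.30, 0.18 ± 0.33 and 0.34 ± 0.23. Without Control 20 they were -0.37, 0.022 and 0.20, without Cyp7a1 24 -0.20, 0.044 and 0.24, and without both -0.42, -0.12 and 0.10.

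The monocyte receptors were low in every liver. Ccr2, the receptor that draws monocytes toward the chemokine Ccl2, ranged over 15.7 to 72.2 (median 41.2) in controls and 18.5 to 51.6 (median 38.7) in the Cyp7a1-labelled group. Cx3cr1, the fractalkine receptor, ranged over 39.4 to 148 (median 87.2) and 28.2 to 150.0 (median 57.5), with 7 of 8 Cyp7a1-labelled livers below the control mean and Cyp7a1 24 the highest of all. Their log2 fold changes were -0.26 ± 0.30 and -0.42 ± 0.34, with limma adjusted p of 0.686 and 0.538. Without Control 20 the value of Ccr2 was -0.44, without Cyp7a1 24 that of Cx3cr1 was -0.61, and without both livers the 2 values were -0.50 and -0.74.

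Lgals3 (galectin-3) ranged over 108 to 329 (median 151) and 98.7 to 210.0 (median 149), and Lyz2, the lysozyme of myeloid cells, over 1149.6 to 2528 (median 1299.9) and 795 to 2045 (median 1166). Lyz2 has a near-identical neighbour, Lyz1, with which reads may be shared. For both genes most Cyp7a1-labelled livers lay below the control mean, 6 and 7 of 8, and the log2 fold changes were -0.18 ± 0.22 and -0.26 ± 0.18 (limma adjusted p = 0.709 and 0.454). Without both Control 20 and Cyp7a1 24 they were -0.34 and -0.41.

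The promoter of Itgax (RefSeq, GRCm38.p6, 250 bases before the RefSeq start, which lies 3 bases from the annotation's) is shown because it holds TGACTCA, the motif of the AP-1 (Fos and Jun) factors, printed in capitals as TGAGTCA from the other strand.
Itgax chr7:128129300-128129549 (plus strand): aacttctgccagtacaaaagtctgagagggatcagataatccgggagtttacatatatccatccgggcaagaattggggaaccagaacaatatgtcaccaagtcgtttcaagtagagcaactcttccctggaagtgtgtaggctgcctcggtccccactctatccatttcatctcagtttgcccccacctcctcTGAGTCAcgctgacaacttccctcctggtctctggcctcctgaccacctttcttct
The match began 56 bases before the RefSeq start. Of 30 members with a promoter, 5 held this motif (Cd68, Folr2, Gpnmb, Itgax and Mmp12), 3 of them among 10 recruited markers, and 5.20% of 32851 promoters did.

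All 4 MHC class II genes had lower values in the Cyp7a1-labelled livers on average, and none passed the limma test. Cd74 ranged over 2208 to 4888 (median 3555) normalized counts in controls and 1995 to 3422 (median 2755) in Cyp7a1-labelled livers. All 8 Cyp7a1-labelled livers lay below the control mean, and Control 20 was the single control under the Cyp7a1-labelled median. The log2 fold change was -0.40 ± 0.14 (SE; 95% interval -0.69 to -0.11, limma adjusted p = 0.0958).

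H2-Ab1, the beta chain of the I-A molecule, ranged over 629 to 1536 (median 1039) and 508 to 1022 (median 778), with all 8 Cyp7a1-labelled livers below the control mean (log2 fold change -0.41 ± 0.16, limma adjusted p = 0.148). H2-Aa, its alpha chain, ranged over 795 to 1835 (median 1304) and 741 to 1341 (median 997), and H2-Eb1, the I-E beta chain, over 474 to 1519 (median 985) and 544 to 987 (median 833). In all 4 genes Control 7 was the highest of the 16 livers, and in H2-Eb1 Control 20 was the lowest of all. The log2 fold changes of H2-Aa and H2-Eb1 were -0.36 ± 0.15 and -0.31 ± 0.18 (limma adjusted p = 0.179 and 0.370), and without Control 20 and Cyp7a1 24 that of H2-Eb1 was -0.49.

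The calls of this class differed between settings. Without Control 20, 2 of the 4 passed and were lower, Cd74 (log2 fold change -0.49, limma adjusted p = 0.0196) and H2-Ab1 (-0.52, 0.0432), beside 5.57% of all genes, while H2-Aa (0.0547) and H2-Eb1 (0.0591) did not. Without Control 20 and Cyp7a1 24 together, a pair chosen after seeing the data, Cd74 passed (0.0214, beside 5.66% of all genes) and H2-Ab1 did not (0.0509). With Control 20 kept, Cd74 also passed with array weights (limma adjusted p = 0.0324, beside 7.41% of all genes) and with DESeq2 (adjusted p = 0.0408, beside 8.88%), and not with edgeR (0.0864). The fold changes of all 4 were below 0 in every alternative run. Dendritic cells and B cells also express these genes. Of 8 dendritic cell markers 3 were in the table, with summed levels of 237 to 315 (median 269) in controls and 219 to 303 (median 259) in the other group, and of 12 lymphocyte markers 3 were, with 206 to 711 (median 344) and 215 to 1069 (median 407). Their part in the MHC class II values was not tested.

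H2-Ab1, H2-Aa and H2-Eb1 lie within 59.0 kb on chromosome 17 (34257689 to 34316674, GRCm38), while Cd74 lies on another chromosome. The promoters of H2-Aa and H2-Eb1 (RefSeq, GRCm38.p6, 250 bases before a start that the annotation shares) are shown because they hold the X and Y boxes through which class II genes are known to be switched on together. Capitals mark the X box core CTNGCAAC and the Y box core GATTGG, which also reads CCAATC on the other strand.
H2-Aa chr17:34287824-34288073 (minus strand): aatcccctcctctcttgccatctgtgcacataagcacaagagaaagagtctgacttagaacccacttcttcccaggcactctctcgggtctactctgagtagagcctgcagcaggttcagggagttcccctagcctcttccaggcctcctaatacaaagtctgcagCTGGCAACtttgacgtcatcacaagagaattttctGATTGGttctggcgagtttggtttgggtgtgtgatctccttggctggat
H2-Eb1 chr17:34305617-34305866 (plus strand): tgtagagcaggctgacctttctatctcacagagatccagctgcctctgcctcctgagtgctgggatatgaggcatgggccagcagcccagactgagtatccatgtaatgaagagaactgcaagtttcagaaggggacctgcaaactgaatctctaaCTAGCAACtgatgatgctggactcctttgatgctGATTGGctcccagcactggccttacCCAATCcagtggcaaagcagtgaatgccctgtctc
In both, the X box core came first, with 27 bases between it and the Y box core in H2-Aa and 26 in H2-Eb1. The Y box core was in 16.1% of 32851 promoters, the X box core in 3.42% and both in 0.572%. Of 30 members with a promoter, H2-Aa, H2-Eb1 and Cd163 held both. Cd74 and H2-Ab1 had no RefSeq promoter here, so neither was searched for these boxes.

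Among the 13 genes shared by most macrophages, Adgre1 (chromosome 17, 57358691 to 57483527, plus strand), which encodes the F4/80 antigen, had 1 liver far above the rest. It spanned 359 to 1047 (median 420.1) normalized counts in controls and 298 to 3537 (median 464) in Cyp7a1-labelled livers. Cyp7a1 24 held 3.38 times the highest of the other 15 livers, and the remaining 7 Cyp7a1-labelled livers reached at most 691, under the highest control. The log2 fold change was 0.33 ± 0.39 and turned to -0.038 without Cyp7a1 24 (limma adjusted p = 0.698 and 0.954).

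Csf1r, the receptor of the growth factor on which macrophages depend, ranged over 1471 to 2473 (median 1805) and 1314 to 3537 (median 1706), with a log2 fold change of 0.0038 ± 0.17 (95% interval -0.36 to 0.37). Its value without Cyp7a1 24 was -0.13. Cd68, a lysosomal glycoprotein, ranged over 323 to 574 (median 354) and 273 to 465 (median 344), and Ctss, the cathepsin that trims the invariant chain, over 877 to 1543 (median 1125) and 866 to 1797 (median 1013). Below the control mean lay 6 and 6 of 8 Cyp7a1-labelled livers, with log2 fold changes of -0.14 ± 0.13 and -0.11 ± 0.14, which were -0.23 and -0.28 without Control 20 and Cyp7a1 24.

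The signalling adaptors Tyrobp and Fcer1g ranged over 218 to 384 (median 272) and 169 to 301 (median 195) in controls. In Cyp7a1-labelled livers they ranged over 205 to 444 (median 231) and 134 to 627 (median 189.8). Cyp7a1 24 was the highest for each, at 2.08 times the highest of the other 15 livers for Fcer1g and 1.16 times for Tyrobp (log2 fold changes -0.065 ± 0.15 and 0.044 ± 0.23). Without Cyp7a1 24 these values were -0.18 and -0.18.

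Cd14, the coreceptor for bacterial lipopolysaccharide, ranged over 28.2 to 154 (median 67.5) in controls and 58.9 to 341 (median 102) in the Cyp7a1-labelled group, where 6 of 8 livers were above the control mean (log2 fold change 0.62 ± 0.35, limma adjusted p = 0.337). Without Control 20 its value was 0.43, without Cyp7a1 24 0.38 and without both 0.20. The pan-leukocyte phosphatase Ptprc (CD45) ranged over 124 to 258 (median 154) and 119 to 586 (median 181), and Aif1 (Iba1) over 38.2 to 116 (median 66.5) and 40.3 to 252 (median 70.5). Their highest value was again that of Cyp7a1 24, and so was that of Laptm5, a lysosomal protein of blood-derived cells, at 1927 against at most 905 elsewhere. The log2 fold changes of Ptprc, Aif1 and Laptm5 were 0.24 ± 0.26, 0.23 ± 0.29 and 0.052 ± 0.21, and without Cyp7a1 24 they were 0.018, -0.0096 and -0.15.

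Mrc1, the mannose receptor, which sinusoidal endothelial cells also express, varied least of all 37. It ranged over 765 to 1047 (median 901) and 732 to 1142 (median 1014) (log2 fold change 0.095 ± 0.084, and 0.062 without Cyp7a1 24). Mpeg1, a pore-forming protein of phagosomes, ranged over 2511 to 3539.5 (median 3033) and 2825 to 4204 (median 3253) (log2 fold change 0.16 ± 0.091, limma adjusted p = 0.344), and Cybb, the catalytic subunit of the phagocyte oxidase, over 382 to 694 (median 449) and 318 to 642 (median 426) (log2 fold change -0.12 ± 0.14). Without both livers Cybb had -0.25. In these 3 genes Cyp7a1 24 stood near the other high livers, not apart from them.

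Single livers set most of the extremes. Cyp7a1 24 had the highest value of the 16 livers in 19 of 37 members, 10 of them shared genes and 4 of them resident markers, while it was the highest in 13.9% of all genes tested. It was not the highest for Clec4f, where it held 1812, or for Cd163 (671) or any MHC class II gene (Cd74 2907). Spic, Hmox1 and Itgb2, which are not among the 37, were far higher there than elsewhere. Spic, a factor of iron-recycling macrophages, had 952 normalized counts there and 25.1 to 86.7 elsewhere, and the haem-degrading enzyme Hmox1 had 2905 against 496 to 851. The neutrophil receptor Csf3r was also highest there, 224 against at most 104, and the integrin chain Itgb2 of blood-derived cells was 1816 against at most 481. The B cell markers Cd79b (81.7 against at most 22.4 in controls) and Ighm (953 against 655) were at their highest there too. The red cell globin Hbb-bs was also highest there (1977 against at most 1799 elsewhere), but the globin Hbb-bt was not (318, against 346 in another Cyp7a1-labelled liver). The 5 blood genes together summed to 4847 in Cyp7a1 24, below 5602 in Cyp7a1 36 and 6199 in Control 25. These genes were singled out after their values were seen, and the part of other cells in the members' values in this liver was not tested.

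Control 20 was the lowest of the 16 livers in 9 of 37 members, 6 of them recruited markers, and in 12.8% of all genes tested. Its resident markers did not share this: Clec4f stood at 1915 and Folr2 at 312, the highest of all. Collagen transcripts were low in the same liver, with Col1a1 at 155 against a control median of 889. Of the endothelial markers Lyve1 stood at 287 against 733, while Stab2 (2201 against 2341) and Clec4g (1246 against 1107) stood near their control medians. All 12 endothelial markers together summed to 15729 there, the lowest of the controls (median 17212). Control 7 was the highest in 9 members, 5 recruited markers and all 4 MHC class II genes, and in 5.9% of all genes tested. Control 13 was the highest in 4 members and in 5.0% of all genes. Cyp7a1 19 was the lowest in 13 of 37 members, 3 of them the C1q chains and 6 of them shared genes, and in 7.4% of all genes.

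**Figure D3:**
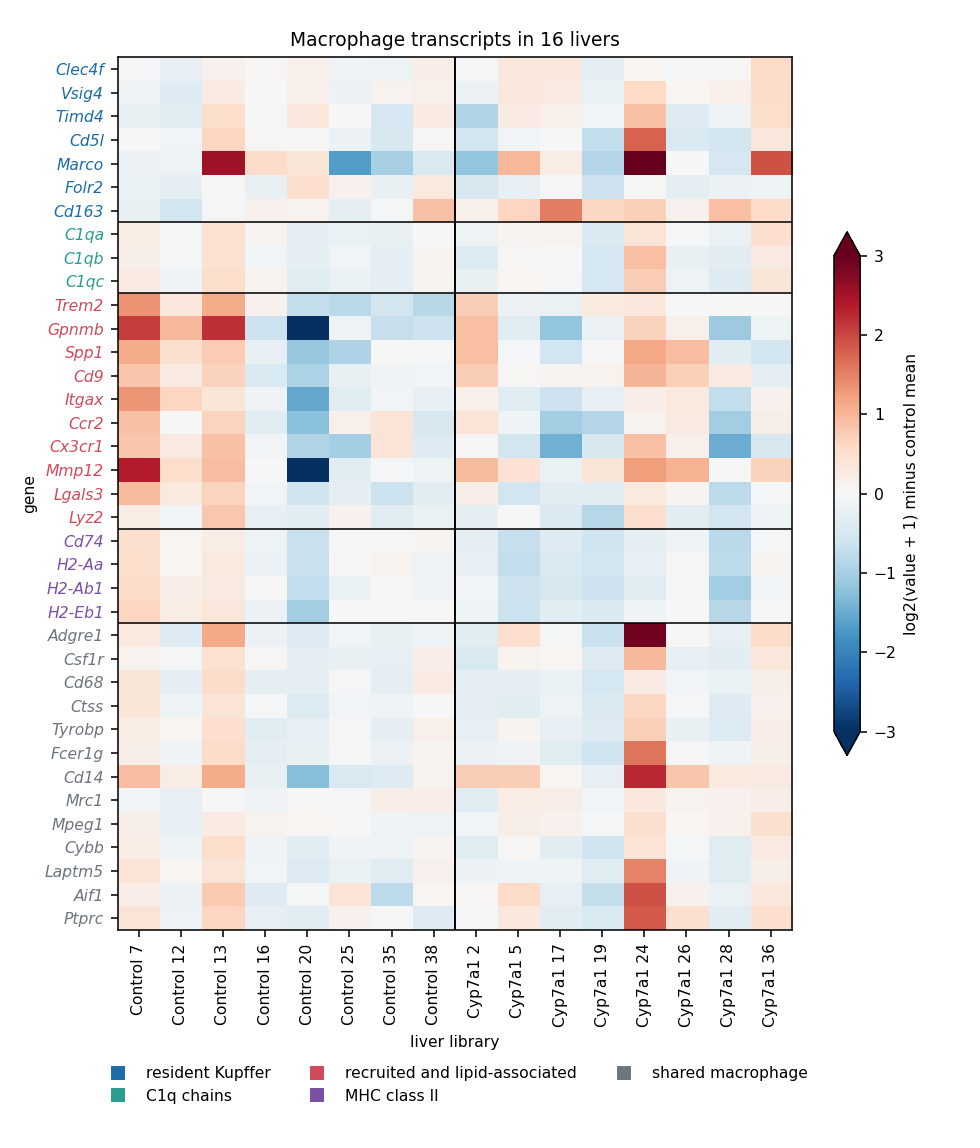
Each cell is log2(value + 1) of 1 transcript (rows, coloured and ruled by class) in 1 liver (columns, controls left of the vertical line) minus the mean of the 8 controls, with the colour scale ending at -3 and 3. Cyp7a1 24 is red in Marco, Adgre1 and most shared genes but pale in Clec4f and MHC class II, and Control 20 is dark blue in Gpnmb and Mmp12.

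The spread between livers was described as the SD of log2(value + 1) within each group. The pooled SD had a median of 0.43 over the 37 members and 0.17 over all genes, and it ran from 0.18 in Mrc1 to 1.69 in Marco. Counting error from the reads alone would give an SD of 0.024 in Mpeg1 to 0.22 in Ccr2, below the observed SD of each. Recruited markers varied more among controls, in 8 of 10 genes, and resident markers, C1q chains and shared genes more among Cyp7a1-labelled livers, in 6 of 7, 3 of 3 and 11 of 13. Of all genes, 6921 of 12617 had the larger SD among controls. With Control 20 and Cyp7a1 24 left out, the SD was larger among controls in 9 of 10 recruited markers, and larger among Cyp7a1-labelled livers in 5 of 7 resident markers, 3 of 3 C1q chains and 5 of 13 shared genes. MHC class II went from a larger SD among controls in 4 of 4 genes to a larger SD among Cyp7a1-labelled livers in 4 of 4, so for this class and the shared genes the side with the larger SD rested on those 2 livers.

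Gpnmb had an SD of 1.74 in controls and 0.74 in the Cyp7a1-labelled group, Mmp12 of 1.58 and 0.51, and Trem2 of 0.87 and 0.31. Without Control 20 the control SD of Gpnmb was 1.29, that of Mmp12 0.94 and that of Trem2 0.89, each still above the Cyp7a1-labelled SD. In the other direction Cd5l had 0.31 and 0.81, and Adgre1 0.51 and 1.12. Without Cyp7a1 24 these 2 fell to 0.38 and 0.44 in the Cyp7a1-labelled group.

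No difference in spread passed its test (limma on the absolute deviation from the group mean, adjusted p under 0.05), in 0 of 37 members and in 0% of all 12617 genes. Under 0.05 before adjustment were 2 members, beside 8.5% of all genes. These were Cd5l (limma adjusted p = 0.498) and Trem2 (limma adjusted p = 0.498). The test was tried on simulated normal values, with 8 livers a group and the same SD in every unchanged gene. It recovered 3% of 200 genes whose SD differed 3-fold and 89.5% of those whose SD differed 10-fold. Before adjustment, 84% of the 3-fold genes had a limma p under 0.05. In that setting differences near 3-fold were mostly not detectable after adjustment. The members had unequal SDs and single far livers, so these shares need not hold for them.

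**Figure D4:**
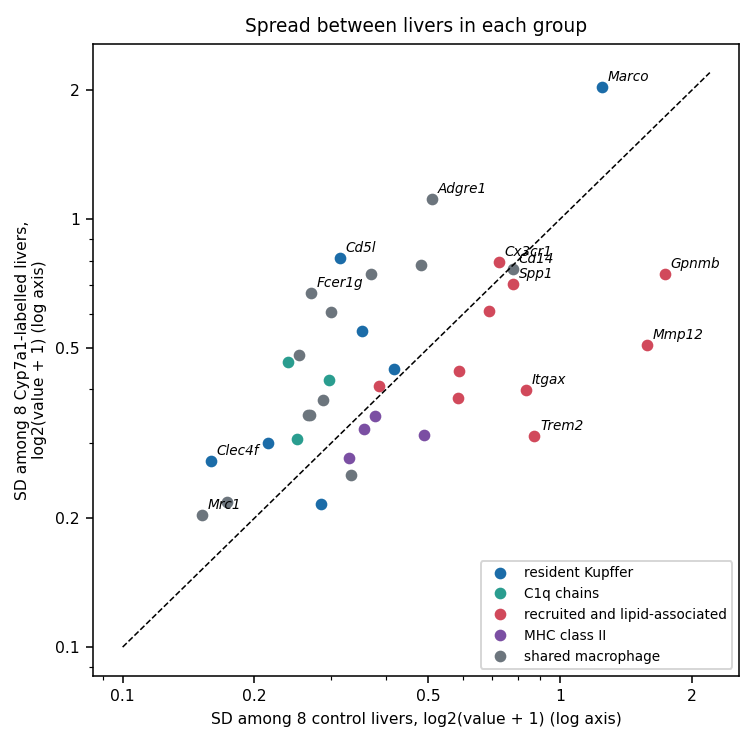
SD of log2(value + 1) among the 8 control livers (x axis, logarithmic) against that among the 8 Cyp7a1-labelled livers (y axis, logarithmic), 1 point per transcript coloured by class, with a dashed line where both are equal. Recruited markers such as Gpnmb, Mmp12 and Trem2 lie below the line, and Marco, Adgre1 and Cd5l above it.

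Across the 16 livers, with the group means subtracted, transcripts of one class went up and down together, and so did those of some different classes. This is a description over libraries that share depth and normalization, with no value for other gene pairs beside it. The median correlation between members was 0.94 within the C1q chains, 0.95 within MHC class II, 0.81 within shared genes, 0.76 within recruited markers and 0.60 within resident markers. Between classes it was -0.14 for resident with recruited markers, where 28 of 70 pairs were above 0, and 0.75 for recruited markers with MHC class II, where all 40 pairs were. The C1q chains went with shared genes (0.83) and with resident markers (0.65), the latter above the value within resident markers (0.60). Without Control 20 and Cyp7a1 24 the resident with recruited value was -0.15 and the recruited with MHC class II value 0.67.

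**Figure D5:**
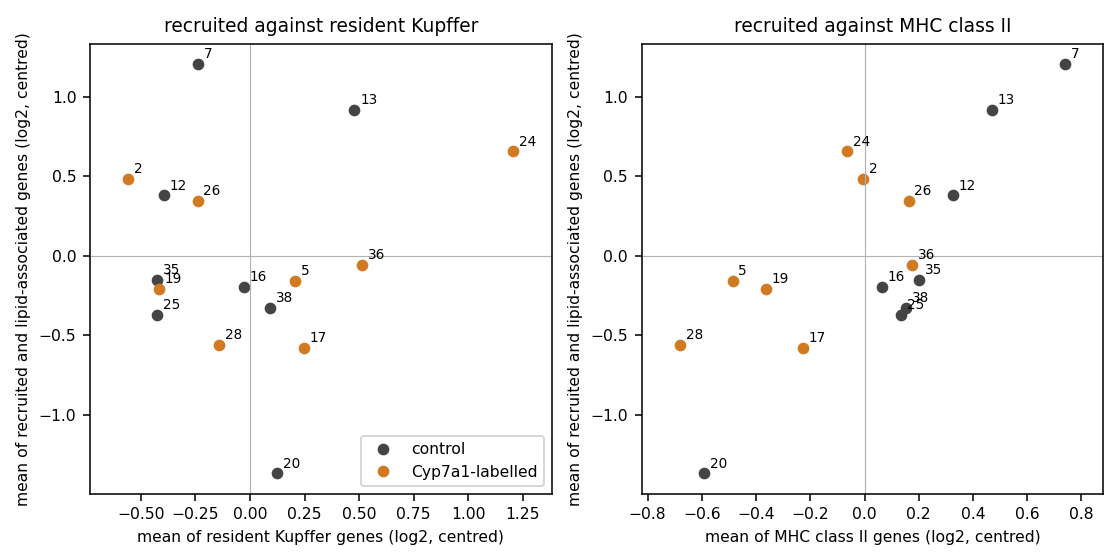
Mean of the recruited and lipid-associated markers in each liver (y axes) against the mean of the resident Kupffer markers (left) and of MHC class II genes (right), each as log2(value + 1) centred on the mean of all 16 livers, with points numbered by liver. Controls spread from -1.37 in Control 20 to 1.20 in Control 7 on the recruited axis, and the livers form a rising band on the right but not on the left.

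In 10 pairs of members the correlation was tested by permuting livers within groups (100000 resamples, two-sided, adjusted over the 10). These pairs were chosen with earlier results of these data known, a choice that the adjustment over 10 does not cover. H2-Aa and Cd74 had r = 0.97 and rho = 0.96 (permutation p = 1e-05 for both, the smallest that this number of resamples can give, adjusted p = 0.0001), and r = 0.94 without the 2 livers farthest from the median. C1qa and C1qb had r = 0.87 and rho = 0.89 (permutation adjusted p = 0.0001 and 0.0001; 0.88 without 2 livers). Csf1r and its fellow marker Adgre1 had r = 0.91 and rho = 0.89 (permutation adjusted p = 0.0001 and 0.0001; 0.82 without Cyp7a1 24 and Cyp7a1 2).

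C1qa and C1qb are chains of one molecule, and Cd74 escorts the class II dimer that holds H2-Aa. H2-Aa and Itgax had r = 0.87 and rho = 0.82 (permutation adjusted p = 0.000175 and 0.000625; 0.74 without Control 20 and Control 7). Trem2 and Gpnmb had r = 0.81 and rho = 0.81 (permutation adjusted p = 0.00158 and 0.00132; 0.66 without Control 7 and Control 13). Clec4f and Vsig4 had r = 0.76 and rho = 0.76 (permutation adjusted p = 0.00348 and 0.00303; 0.63 without Cyp7a1 36 and Cyp7a1 19).

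Clec4f and the resident receptor Timd4 had r = 0.60 and rho = 0.70 (permutation adjusted p = 0.0453 and 0.00743), and with 1 liver left out its adjusted p stayed under 0.05 only without Control 16, Control 25, Cyp7a1 2, Cyp7a1 19 or Cyp7a1 24. Clec4f and Gpnmb had r = -0.22 and rho = -0.33 (permutation adjusted p = 0.321 and 0.207), a relation that was not detected at this number of livers. Gpnmb with Cd68 (r = 0.56, rho = 0.49, permutation adjusted p = 0.0526 and 0.0947) and Clec4f with Cd68 (r = 0.47, rho = 0.42, 0.0625 and 0.119) did not pass either. Within the groups of 8, r for Trem2 with Gpnmb was 0.82 in controls and 0.79 in Cyp7a1-labelled livers (exact permutation adjusted p over 20 relations = 0.0247 and 0.0301), and for Clec4f with Timd4 it was 0.86 and 0.50 (0.0242 and 0.256).

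Outside the 37 members, the transcripts whose values over 16 livers (group means subtracted) were most like the mean of the resident markers were Sdc3 (r = 0.93), Trpm2 (0.92), Treml4 (0.92), Kcna2 (0.91) and Ccdc148 (0.91). Those most like the mean of the recruited markers were S100a11 (0.99), Adamts2 (0.98), Col1a2 (0.98), Col1a1 (0.97) and Col6a3 (0.97), 3 of which are collagen chains that stellate cells and fibroblasts make. Col1a1 ranged from 155 in Control 20 to 2678 in Control 13, the same livers that were lowest and highest for Gpnmb. Without Cyp7a1 24 the 5 resident values were 0.84 to 0.89 and the 5 recruited values 0.97 to 0.99.

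Other genes of macrophages were read from 5 lists, and 3 of their 56 tested members passed, beside 6.12% of all genes, and nothing is read from a share this near the background. In the lysosome and lipid handling list 2 of 16 were higher and 0 lower (median log2 fold change 0.071). The lysosomal protease Ctsl rose from 9424 to 12708 normalized counts in controls to between 13911 and 16972, with no overlap of the groups (log2 fold change 0.51 ± 0.068, limma adjusted p = 2.77e-04), and the cholesterol-binding protein Npc2 rose by 0.29 ± 0.067 (0.0151). Hepatocytes express both genes, so these values are not those of macrophages alone. In the iron and haem handling list 0 of 8 were higher and 1 lower, the biliverdin reductase Blvrb (log2 fold change -0.32 ± 0.070, limma adjusted p = 0.0114), with a median of 0.075.

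None passed among 12 macrophage transcription factors (median -0.063), where Id3, which Kupffer cells need, had a log2 fold change of -0.25 ± 0.14. None passed among 11 tested growth factors and chemokines (median -0.057). Csf1, the ligand of Csf1r, had a median of 387 in controls and 357 in Cyp7a1-labelled livers, with all 8 of these below the control mean (log2 fold change -0.12 ± 0.070, limma adjusted p = 0.339), and the eosinophil chemokine Ccl24 had -0.40 ± 0.20. Among 9 tested Fc and complement receptors none passed (median -0.026), and Fcgr2b, which endothelial cells also express, and Fcgr1 had -0.12 ± 0.078 and -0.084 ± 0.19.

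Markers of other liver cells are given for the values that moved beside the members, as summed normalized counts. The 14 tested stellate and fibrosis markers summed to 12709 to 25174 (median 17755) in controls and 14841 to 24172 (median 18724) in Cyp7a1-labelled livers, and the lowest control was Control 20 and the highest Control 13. The 12 liver endothelial markers summed to 15729 to 19178 (median 17212) and 13981 to 18592 (median 16626), a narrower range, and Control 20 was again the lowest control. Neither list had a member past the test, and their medians were 0.038 and -0.081. In the hepatocyte list the aminotransferase Tat was called higher and the other 9 were not called (median 0.10), and Control 20 had the highest sum among controls and Cyp7a1 24 the lowest among Cyp7a1-labelled livers. Of the 12 endothelial markers 9 had values below 0, among them Eng (-0.12 ± 0.048, limma adjusted p = 0.158), while Lyve1 had 0.46 ± 0.20 (0.20). The dendritic cell markers Zbtb46 and Clec9a also differed in sign, at -0.25 ± 0.080 and 0.33 ± 0.13 (limma adjusted p = 0.0732 and 0.143). Of 8 neutrophil markers only Csf3r was in the table, and 7 were not analysed here. None of the 3 lymphocyte, 3 dendritic cell, 1 neutrophil and 5 blood genes tested passed, and their medians were 0.39, 0.092, 0.16 and 0.22. The part of fibrosis transcripts in the spread of the recruited markers was not tested.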

How the data were processed

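Total RNA from flash-frozen mouse liver was made into mRNA libraries with the KAPA RNA HyperPrep kit, per the labels' protocols. Per the submitters' processing notes, the authors used Trim Galore 0.6.10, STAR 2.7.11a, featureCounts, DESeq2, R 3.6.3 and the mm10 build, while for the counting neither annotation nor strand is given in the sources used here, and reads of overlapping genes may be shared. In the deposited table each gene has a signal in every library, a normalized count, which is the read count that the authors divided by a size factor. It has 12618 rows, of which 12617 were tested and 1, Ccne2, was left out because a cell held text. Whole reads were recovered for 99.9 to 100% of values per library (tolerance 0.05 of a read), 13.8 to 27.4 M reads (M, mega) per library, and 0 value columns were left unused. The table's lowest gene mean was 13.3, so genes under that level cannot be seen here.

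The main test was limma 3.58.1 (R 4.3.3) with a trend on log2(value + 1) over all genes with a mean of at least 10, two-sided, and genes were called at 0.05 after Benjamini-Hochberg adjustment across all 12617. The spread test used the same fit on absolute deviations from the group mean. Other settings were a minimum mean of 50 or no minimum, a pseudocount of 8, equal totals, quantile normalization, array weights, edgeR 4.0.16 and DESeq2 1.42.0 on recovered reads, and each of 16 libraries left out. With no minimum the fit was the main one again, because every gene mean was above 10. On simulated counts of 12617 genes with 100 genes changed 1.5-fold and 100 changed 2-fold, limma recovered 80% and 100% with 4.26% of its calls false, edgeR 83% and 100% with 4.69%, and DESeq2 85% and 100% with 12.3%. Every simulated gene had the same dispersion, the variation beyond counting error, of 0.03. The members had unequal pooled SDs, from 0.18 to 1.69 on the log2 scale, and single far livers. These shares therefore need not hold for them, and a 2-fold change in a widely spread member could be missed. Pairs were tested by permuting livers within groups, 100000 times over 16 livers and over all 40320 pairings within 8. Sequences came from RefSeq tables on GRCm38.p6, where 30 of 37 members had a promoter, and gene coordinates from GENCODE on GRCm38 (mm10), counted from 1.

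All 37 members are named, as are up to 4 genes of each other list past the threshold or the 2 with the smallest p where none passed, and the 5 genes most like each of 2 class means. A gene that this rule names is not reported here. The members, lists, pairs and motifs were chosen with earlier results of these data known.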

Additional observations from a re-analysis of the deposited data

Results flagged for a closer look

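In 10 of 84 groups of 8 values looked at (74 of single genes, 10 of class means), the highest liver stood far from the other 7 on the log2 scale, by the ratio of its gap to the range of the group. Chance flags about 1 in 20 groups, which would be 4.2 here, and the genes are not independent of each other. All 10 fell in 2 livers, 7 in Cyp7a1 24 and 3 in Control 13.

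In Cyp7a1 24 the F4/80 gene Adgre1 was at 3537 normalized counts, where the next liver of the group had 691, and the Kupffer protein Cd5l was at 8124, where the next had 2993. The adaptor Fcer1g was at 627 (next 231), the lipopolysaccharide coreceptor Cd14 at 341 (next 126), the lysosomal Laptm5 at 1927 (next 765) and the leukocyte phosphatase Ptprc at 586 (next 231). The mean of the 13 shared macrophage genes, on the centred log2 scale, was 1.16 there and at most 0.24 in the other 7. In Control 13 Cd5l was at 3729 (next control 2432), Lyz2 at 2528 (next 1660) and Adgre1 at 1047 (next 582). Cd5l and Adgre1 thus stood apart in 1 liver of each group.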

How the results depend on the processing

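No paired analysis was possible because the groups share no replicate number. Of 923 log2 fold changes of members under 25 alternative settings, 846 kept their direction and their side of the threshold, 13 passed the threshold that they had missed and 64 changed sign, in 16 members. That total includes the run with no minimum, which repeats the main fit. It also includes the minimum mean of 50, which changes adjusted p but no fold change. The number of members called went from 0 to 1 with a minimum mean of 50, quantile normalization, equal totals, or Control 20 and Cyp7a1 24 both left out, and to 2 with array weights or DESeq2. In these settings 5.03% (equal totals) to 8.88% (DESeq2) of all genes passed. The resident class had 1 called with the minimum mean of 50, quantile normalization, equal totals, array weights and DESeq2, and MHC class II had 1 with array weights, DESeq2 and both livers left out. With 1 library left out the calls ranged from 0 to 2 over all members, from 0 to 1 among resident markers and from 0 to 2 in MHC class II. In the runs where a member passed, 4.57% (without Control 38) to 5.57% (without Control 20) of all genes did. DESeq2 called 5 of 56 other genes of macrophages beside 8.88% of all genes, and limma 3 beside 6.12%, each near its background.

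Signs changed with edgeR or DESeq2 for Cd5l (0.19 and 0.19), C1qb (0.022 and 0.020), C1qc (0.012 and 0.010), Trem2 (-0.12 and -0.10) and, with DESeq2, Adgre1 (-0.079). Array weights gave -0.019 for C1qa, -0.081 for Csf1r, -0.045 for Fcer1g and -0.078 for Laptm5, and equal totals gave -0.0034 for Csf1r. Without both Control 20 and Cyp7a1 24, chosen after seeing the data, the values were -0.042 for Timd4, -0.060 for C1qa, -0.0078 for Trem2, -0.12 for Spp1, -0.093 for Adgre1, -0.18 for Csf1r, -0.21 for Fcer1g, -0.21 for Laptm5, -0.019 for Aif1 and -0.032 for Ptprc. With 1 library left out, the ranges that crossed 0 were -0.086 to 0.17 for Timd4, -0.30 to 0.063 for Cd5l, -0.037 to 0.096 for C1qa, -0.17 to 0.038 for C1qb, -0.13 to 0.055 for C1qc, -0.60 to 0.16 for Gpnmb, -0.37 to 0.043 for Itgax, -0.038 to 0.49 for Adgre1, -0.13 to 0.070 for Csf1r, -0.18 to 0.0060 for Tyrobp, -0.18 to 0.14 for Fcer1g, -0.15 to 0.11 for Laptm5 and -0.0096 to 0.36 for Aif1. The cause was not tested.

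Among the pairs, Gpnmb with Cd68 passed with a pseudocount of 8 (r = 0.58) and equal totals (0.67), and Clec4f with Cd68 with quantile normalization (0.56), equal totals (0.60) and both livers left out (0.62). Clec4f with Gpnmb changed sign with equal totals (0.047). With 1 library left out r ranged from 0.54 to 0.74 for Clec4f with Timd4, from 0.42 to 0.65 for Gpnmb with Cd68, which passed without Control 12, Control 38, Cyp7a1 2 or Cyp7a1 19, and from 0.34 to 0.55 for Clec4f with Cd68, which passed without Control 20 or Cyp7a1 24. The cause was not tested. Trem2 and Ccr2, with means under 50 normalized counts, had the highest counting error among the members, and neither was in the fit with a minimum mean of 50.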
